A study of Mus musculus with 12 samples.

Results

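Chemokines are small secreted or membrane-anchored proteins that draw leukocytes along a gradient, and their receptors are G protein-coupled receptors that turn ligand binding into directed movement. In the small intestine they place lymphocytes in the epithelium, eosinophils and macrophages in the lamina propria, and B cells in lymphoid follicles. Several ligands share a receptor and several receptors share a ligand, so ligands are described here beside the receptors they engage. With earlier results of these data known, the genes were chosen by name. They are those whose platform symbol starts with Ccl, Cxcl, Ccr, Cxcr or Ackr and a digit, or with Cx3c. This gave 54 of the 19938 genes with a probe set of a single name: 33 ligands, 17 receptors and 4 atypical receptors, which bind chemokines and clear them without classical signaling. Each gene was read from its brightest single-name probe set. Probe sets that carry several names, among them 7 for copies of Ccl21 and Ccl27, were left out.

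The tissue was jejunum of male mice 8 weeks of age, harvested on day 7 after surgery. Common bile duct ligation (CBDL), which stops bile from reaching the gut, was set against sham surgery, a control operation that leaves the bile duct in place and open. Both operations were done in A/J and in C57BL/6J (B6) inbred mice, with 3 arrays for each of the 4 combinations of strain and surgery and 12 arrays in all. Inbred wild-type mice of a single sex and a single time point were studied, and the piece of jejunum held all layers and cell types together. The labels number the arrays of a group without saying what separates them, so the p-values measure the spread between these arrays, which may be partly technical.

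All values are log2 signals of an array, so a difference of 1 is a change of 2-fold. Array medians lay between 5.36 and 5.51. The mean signals of the 54 genes ranged from 3.17 to 11.9, and 31 of them lay below 5.42, the median mean of all 35556 probe sets, where small signals and background are hard to separate. Since probe sets differ in brightness, signals were compared between groups and not between genes. Jejunal enterocyte markers averaged 12.5 to 12.7 in every array and pancreatic acinar markers 4.56 to 5.03, as the tissue label gives. Hepatocyte markers (8 genes, albumin among them) did not stay low: their mean was 4.77 to 5.64 in A/J sham, 9.22 to 9.84 in A/J CBDL, 6.84 to 9.29 in B6 sham and 9.44 to 9.74 in B6 CBDL. T and NK cell markers (11 genes) averaged 6.99 to 7.25 in B6 sham and 6.43 to 6.76 over the other groups, and smooth muscle markers (4 genes) 8.55 to 9.19 in B6 sham against 7.14 to 7.85 in B6 CBDL. Whole tissue was measured, so fewer cells of a type and less RNA per cell cannot be told apart.

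No promoter sequence was available for Ccl24 or Ccl5. Promoter sequences are shown for 4 other ligands described below. They are the 250 bases before the start of the RefSeq gene (GRCm38.p6), printed 5′ to 3′ on the strand of the gene. The Ccl9 promoter lies at chr11:83578637-83578886 on the minus strand, the Cxcl14 promoter at chr13:56296552-56296801 on the minus strand and the Cxcl13 promoter at chr5:95956689-95956938 on the plus strand. For Ccl25, which has several starts, the start shown lies at chr8:4349338-4349587 on the plus strand. Capitals mark matches, on either strand, to the letters of 7 motifs that are known from chemokine or gut promoters, and the motif names say nothing of binding in these mice. The TATA box was searched as TATAAA and found in 12.4% of the 32851 promoters of the table. The other letters were TTCNNNGAA for STAT (7.02% of promoters), TGANTCA for AP-1 (6.75%) and TTTATG for the gut homeobox factor CDX (10.8%). Also searched were the kappa B (45.8%), STAT6 (5.85%) and interferon-stimulated response element (2.98%) motifs. Matches may overlap, as do the TATA boxes of both strands in Ccl9.
Ccl9: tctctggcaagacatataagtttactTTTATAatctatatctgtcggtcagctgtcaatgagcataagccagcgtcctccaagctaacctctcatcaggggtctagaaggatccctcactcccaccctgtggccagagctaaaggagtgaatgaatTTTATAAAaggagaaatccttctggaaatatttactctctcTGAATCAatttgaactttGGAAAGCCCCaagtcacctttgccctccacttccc
Ccl25: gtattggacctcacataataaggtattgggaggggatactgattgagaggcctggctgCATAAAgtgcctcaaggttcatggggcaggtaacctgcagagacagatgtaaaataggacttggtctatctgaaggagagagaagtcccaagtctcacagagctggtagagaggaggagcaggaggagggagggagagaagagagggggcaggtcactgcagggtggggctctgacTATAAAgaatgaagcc
Cxcl14: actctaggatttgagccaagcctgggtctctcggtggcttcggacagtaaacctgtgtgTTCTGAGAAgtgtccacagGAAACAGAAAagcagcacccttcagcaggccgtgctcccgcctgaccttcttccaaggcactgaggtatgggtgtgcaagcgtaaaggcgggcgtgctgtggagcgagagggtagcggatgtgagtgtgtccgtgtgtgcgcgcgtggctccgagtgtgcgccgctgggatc
Cxcl13: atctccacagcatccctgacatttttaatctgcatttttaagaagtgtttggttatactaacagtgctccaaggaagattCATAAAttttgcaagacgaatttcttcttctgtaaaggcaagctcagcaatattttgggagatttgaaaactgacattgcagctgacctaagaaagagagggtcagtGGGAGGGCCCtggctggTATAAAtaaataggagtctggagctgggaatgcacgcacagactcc

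In Ccl9, TATA boxes lay 224 to 219 and, overlapping on both strands, 94 to 87 bases before the start. An AP-1 match lay 53 to 47 bases and a kappa B match 35 to 26 bases before it. The Cxcl13 window held a TATA box 46 to 41 bases before the start. Just upstream of it lay a stretch that matched the kappa B letters on both strands. For Ccl25, which enterocytes make, the start shown had a TATA box 16 to 11 bases before it. That window also held a match to the letters of CDX, the gut homeobox factor. Another Ccl25 start, with its window at chr8:4324960-4325209, held no match to the motifs marked here. The CDX letters were not particular to Ccl25, since the Cxcl13 window held them 170 to 165 bases before the start. The Cxcl14 window held a STAT and an interferon-stimulated response element match and no TATA box. Of the 54 genes, 40 had an entry in the promoter table, with 42 promoters in all; 13 of these held the TATA box, 25 the kappa B letters and 8 the CDX letters.

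Few chemokine genes changed after CBDL, and those that did were ligands. With the strains averaged, CBDL lowered Ccl24, Ccl25 and Cxcl14 and raised Ccl9, so that 4 of 54 genes passed an adjusted p (Benjamini-Hochberg, limma) under 0.05, beside 1.74% of all probe sets. In B6 mice alone 1 of 54 passed, Ccl24, beside 0.0534% of all probe sets, and in A/J mice 0 of 54 did, beside 0.818%. At an unadjusted p under 0.05 in the same limma fit, 9 of 54 were found in A/J mice and 8 of 54 in B6 mice, beside 14.2% and 7.64% of all probe sets. The CBDL and sham arrays did not overlap for 7 higher and 9 lower genes in A/J mice, beside 8.04% and 9.07% of all probe sets, and for 4 higher and 10 lower genes in B6 mice, beside 7.89% and 7.62%. All 54 differed by less than 2-fold in A/J mice and 52 did so in B6 mice, where Ccl24 and Cxcl13 were the exceptions. The median difference over the 54 genes was -0.06 in the A/J and -0.04 in the B6 strain, against -0.01 and -0.00 over all probe sets. The sign of the difference was the same in both strains for 29 of 54 genes, or 53.7%, against 57.0% of all probe sets. The study's own list of changed genes, at an FDR under 0.05 with its own processing, was not the same. It held Ccl9 as higher in A/J CBDL mice and Ccl24 and Cxcl14 as lower in B6 CBDL mice.

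**Figure D1:**
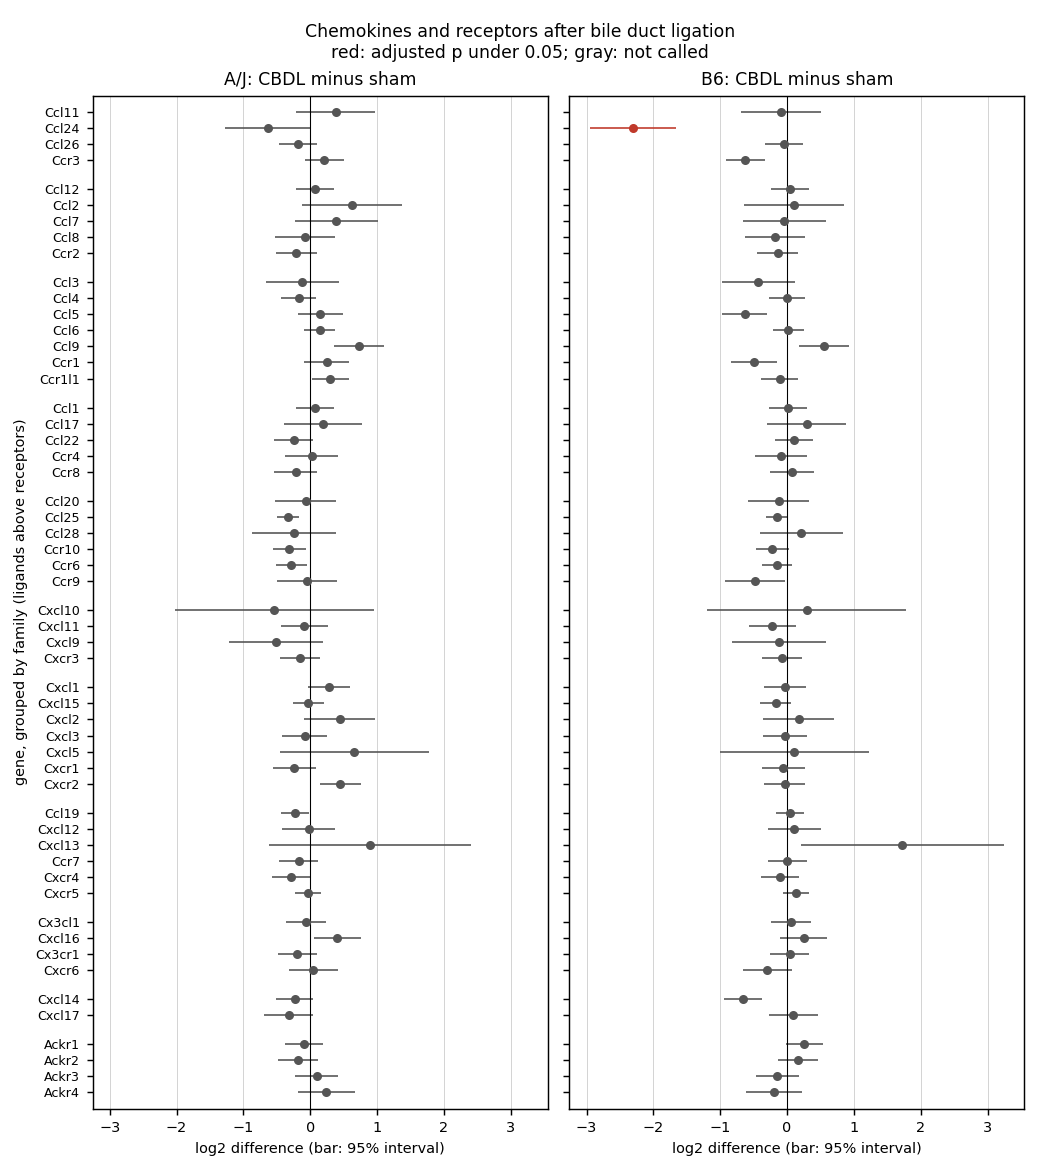
Log2 difference between CBDL and sham for the 54 genes in A/J mice (left) and B6 mice (right), with 95% intervals from the fit to 12 arrays; genes are grouped by family with ligands above receptors. Only Ccl24 in B6 mice is red, at -2.31, and most intervals span 0.

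Ccl24 (eotaxin-2), a ligand of the eosinophil receptor Ccr3, showed the lowest difference of the 54 genes in both strains. Its signals were 7.13, 7.60 and 7.76 in A/J sham and 6.68, 6.94 and 6.97 in A/J CBDL mice. In B6 mice they were 7.85, 7.58 and 8.90 in sham and 5.96, 5.60 and 5.86 in CBDL. All CBDL arrays were below all sham arrays of their strain, with the gap wide in B6 and narrow in A/J mice, and B6 sham replicate 3 stood above the other B6 sham arrays. In B6 mice Ccl24 fell by 2.31 on the log2 scale (SE 0.29), 4.95-fold, with an adjusted p of 0.0499 (limma). In A/J mice the difference was -0.64 (SE 0.29, adjusted p 0.356 in limma). Averaged over the strains Ccl24 fell by 1.47 (SE 0.21, adjusted p 0.00655 in limma), which is 2.77-fold. The difference between the strains' responses was 1.67 (95% interval 0.77 to 2.57), but its adjusted p was 0.463 in limma, so a strain-specific response was not shown.

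The B6 call stood at the threshold. Without B6 sham replicate 3 the fall was 1.91 with an adjusted p of 0.0073 (limma). It was no longer called without A/J sham replicate 2 or 3, A/J CBDL replicate 1 or 3, B6 sham replicate 1 or any B6 CBDL array, where the difference was -2.44 to -2.20 and the adjusted p 0.051 to 0.17. Averaged over the strains it was called without any single array, with adjusted p between 0.00079 and 0.026. T and NK cell markers, 11 of 11 with a negative difference in B6 mice, and smooth muscle markers, 4 of 4 negative, moved with Ccl24 there. In limma 0 of these 15 were called. The study's own list, at an FDR under 0.05 with its own processing, held Cd3g, Cd3d, Gzma, Gzmb and Nkg7 as lower in B6 CBDL mice. With the T and NK marker mean as a covariate the B6 difference of Ccl24 was 0.13 (SE 0.39) and the averaged one -0.16 (SE 0.22). With the smooth muscle mean they were -2.15 (SE 0.40, adjusted p 0.23 in limma) and -1.41 (SE 0.24, adjusted p 0.027). The T and NK mean separates B6 sham (6.99 to 7.25) from B6 CBDL (6.43 to 6.51) without overlap, and its part in the result was not tested. Other marker means were lower in all B6 CBDL than all B6 sham arrays too: macrophage and dendritic cell (6.84 to 6.97 against 7.11 to 7.15, 9 of 10 genes negative), plasma cell (6.29 to 6.53 against 6.66 to 6.93) and adipocyte (4 of 4 genes negative). Mast cell (4.38 to 4.47 against 4.60 to 4.89) and enterocyte means (12.46 to 12.50 against 12.53 to 12.62) were so as well, while endothelial markers were higher (6.14 to 6.29 against 6.01 to 6.08). Their part was not tested. Hepatocyte markers also moved, and with their mean as a covariate the B6 fall was 2.99 (SE 0.31, adjusted p 0.037).

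The other eotaxins did not follow Ccl24. Ccl11 (eotaxin-1) gave 7.11, 7.15 and 7.44 in A/J sham, 7.60, 7.63 and 7.61 in A/J CBDL, 7.36, 6.90 and 7.15 in B6 sham and 7.82, 6.80 and 6.51 in B6 CBDL. Its CBDL arrays were above sham in A/J mice and straddled sham in B6 mice. Ccl26, which lies beside Ccl24 in the genome, stayed between 3.67 and 4.17 in all arrays, near the dim end of the array. Ccr3, the receptor that all of these ligands engage, gave 4.45, 4.26 and 4.67 in A/J sham, 4.52, 4.52 and 4.96 in A/J CBDL, 4.81, 4.87 and 4.79 in B6 sham and 4.17, 4.19 and 4.23 in B6 CBDL. The groups overlapped in A/J mice, while in B6 mice all CBDL arrays were below all sham arrays. The B6 difference was -0.63 (SE 0.13, adjusted p 0.148 in limma) and the A/J difference 0.21 (SE 0.13, adjusted p 0.518). Their difference was 0.84 (95% interval 0.42 to 1.25, adjusted p 0.399). Eosinophil markers (Siglecf, Epx, Prg2, Il5ra and Alox15) had a mean of 4.71 to 4.95 in B6 sham and 4.58 to 4.68 in B6 CBDL; 5 of 5 differences were negative and 0 of 5 were called.

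**Figure D2:**
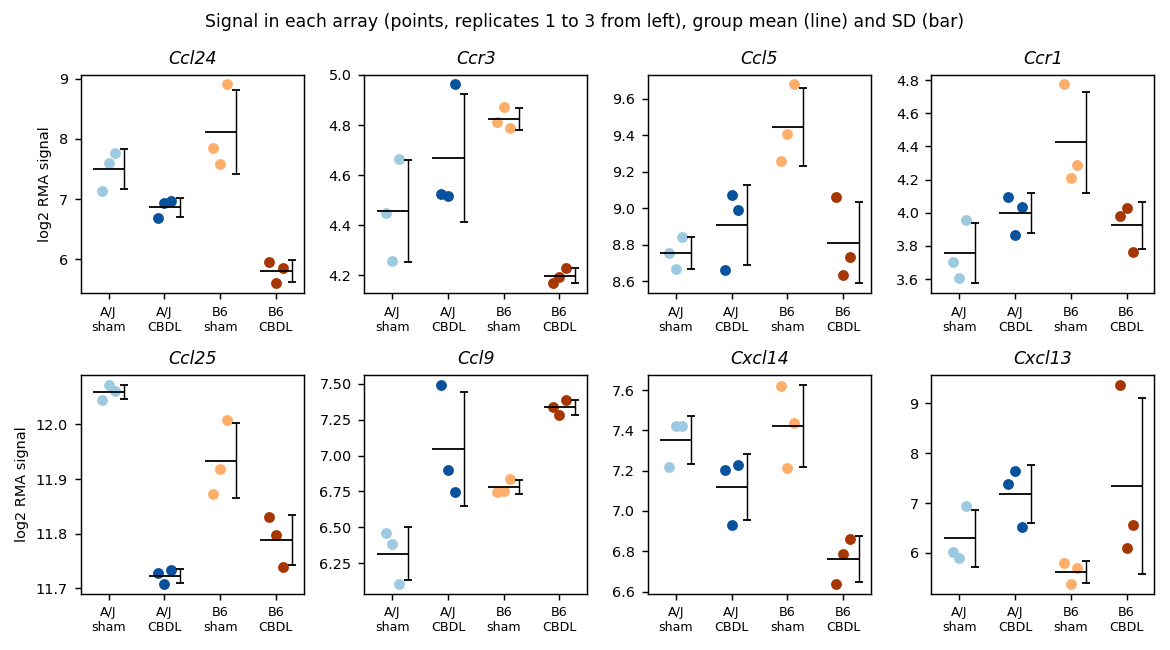
Log2 signal of 8 genes in each of the 12 arrays, with the mean of each group as a line and the SD (n = 3) as a bar; the vertical axes differ between genes and do not start at 0. Ccl24 and Cxcl14 are low in B6 CBDL, Ccl5 and Ccr1 are high in B6 sham, Ccl25 is below sham and Ccl9 above it after CBDL in both strains, and 1 array lifts Cxcl13 in B6 CBDL.

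Among the macrophage inflammatory proteins and Ccl5, whose shared receptor is Ccr1, a single ligand changed with CBDL and a different one with strain. Ccl9 (MIP-1 gamma), which mouse macrophages and follicle-associated epithelium make, gave 6.46, 6.38 and 6.11 in A/J sham and 7.49, 6.90 and 6.75 in A/J CBDL mice. In B6 mice it gave 6.75, 6.76 and 6.84 in sham and 7.34, 7.28 and 7.39 in CBDL. All CBDL arrays exceeded all sham arrays within each strain. Averaged over the strains it rose by 0.64 (SE 0.12, adjusted p 0.0241 in limma), or 1.56-fold. In single strains the difference was 0.73 (SE 0.17, adjusted p 0.0829) in A/J and 0.56 (SE 0.17, adjusted p 0.36) in B6 mice, with a difference between them of 0.17 (95% interval -0.35 to 0.70). The averaged call was lost without A/J sham replicate 2, B6 sham replicate 1 or 2 or any B6 CBDL array, where the rise was 0.63 to 0.66 and the adjusted p 0.051 to 0.07. With the hepatocyte marker mean as a covariate the averaged difference was 0.82 (SE 0.36, adjusted p 1.00), and with the T and NK mean 0.39 (SE 0.28, adjusted p 0.63). Macrophage and dendritic cell markers averaged 6.68 to 7.26 in A/J sham and 6.84 to 7.24 in A/J CBDL mice. In B6 mice, where Ccl9 was higher after CBDL, their mean was lower, at 6.84 to 6.97 against 7.11 to 7.15 in sham, with 5 of 10 genes lower without overlap. In limma, 0 of the 10 were called in any comparison.

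Ccl5 (RANTES), a product of activated T and NK cells that engages Ccr1 and Ccr3, differed between the strains in sham mice. Its signals were 8.76, 8.67 and 8.84 in A/J sham and 9.26, 9.41 and 9.68 in B6 sham. After CBDL they were 8.66, 9.07 and 8.99 in A/J and 9.06, 8.64 and 8.73 in B6 mice. The B6 sham arrays were the 3 highest of the 12, and after CBDL the strains overlapped. Ccl5 was lower in sham mice of the A/J strain, with a difference of -0.69 (SE 0.15, adjusted p 0.0466 in limma) or 1.61-fold, and it was the single gene of the 54 called between the sham groups, beside 1.87% of all probe sets. The difference between the strains after CBDL was 0.10 (SE 0.15, adjusted p 0.844). CBDL against sham gave -0.64 (SE 0.15, adjusted p 0.203) in B6 and 0.15 (SE 0.15, adjusted p 0.698) in A/J mice, and these differed by 0.79 (95% interval 0.32 to 1.26, adjusted p 0.539).

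The same contrast separated cytotoxic cell markers. Gzma, Gzmb and Klrd1, of granules and receptors of cytotoxic lymphocytes, were called lower in A/J than B6 sham mice, 3 of 11 T and NK markers, with 6 of 11 negative in all. Gzma gave 7.41, 6.99 and 7.68 in A/J sham against 9.44, 9.53 and 9.71 in B6 sham. Cd8a, in contrast, gave 7.96, 8.23 and 8.11 against 7.98, 7.96 and 8.34, and overlapped. With the T and NK marker mean as a covariate the sham difference of Ccl5 was -0.07 (SE 0.27). Hepatocyte markers were called lower in A/J sham in 5 of 8 genes, and with their mean as a covariate Ccl5 differed by -0.17 (SE 0.27); the part of either in the result was not tested. The Ccl5 call was lost without A/J sham replicate 1 or 2, A/J CBDL replicate 2 or 3, any B6 sham array or B6 CBDL replicate 2 or 3, where the difference was -0.58 to -0.79 and the adjusted p 0.053 to 0.17. With each array centred on its median Ccl5 was not called while Ccr6, the receptor of Ccl20, was.

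Ccr1 gave 3.70, 3.60 and 3.96 in A/J sham, 4.10, 3.87 and 4.03 in A/J CBDL, 4.77, 4.21 and 4.29 in B6 sham and 3.98, 4.03 and 3.76 in B6 CBDL. Like Ccl5 it was highest in the 3 B6 sham arrays. The sham difference between A/J and B6 was -0.67 (SE 0.16, adjusted p 0.0596 in limma), and the B6 difference between CBDL and sham was -0.50 (SE 0.16, adjusted p 0.379). The remaining ligands of this family had no call. Ccl6, abundant in mouse myeloid cells, lay between 9.14 and 9.26 in A/J sham, 9.39 and 9.78 in B6 sham, 9.27 and 9.44 in A/J CBDL, and 9.57 and 9.70 in B6 CBDL. It was lower in every A/J array than in every B6 array of the same surgery, with a difference of -0.41 (SE 0.11, adjusted p 0.097 in limma) in sham mice and -0.29 (SE 0.11, adjusted p 0.252) after CBDL. Ccl6 is outside the rule for naming genes and was picked out after its values were seen. Its differences were not recomputed with other processing. Ccl3 (MIP-1 alpha) varied between 4.55 and 5.55, with a residual SD of 0.34, and Ccl4 (MIP-1 beta) between 4.73 and 5.15, both with overlap between CBDL and sham in both strains.

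Most monocyte and neutrophil chemokines were dim, and several stood out together in 1 array. Ccl2 (MCP-1), the main ligand of the monocyte receptor Ccr2, gave 4.25, 4.19 and 4.07 in A/J sham, 5.86, 4.20 and 4.31 in A/J CBDL, 3.94, 4.13 and 4.10 in B6 sham and 4.12, 4.04 and 4.32 in B6 CBDL. The neutrophil ligand Cxcl5 gave 3.65, 3.60 and 3.59 in A/J sham, 5.92, 3.38 and 3.52 in A/J CBDL, 3.64, 3.34 and 3.47 in B6 sham and 3.58, 3.54 and 3.66 in B6 CBDL. In both, A/J CBDL replicate 1 was far above the other 11 arrays, which overlapped. Ccl7 (MCP-3) at 6.26 and Cxcl2 (MIP-2) at 4.41 were also highest in that array, so that 4 of 54 genes there exceeded both other arrays of the group by more than 1, a limit chosen after the values were seen, beside 0.810% of all probe sets. Cxcl1 (KC), a neutrophil ligand with a mean of 6.11 and so not dim, gave 6.31, 5.90 and 5.97 in A/J sham and 6.50, 6.14 and 6.37 in A/J CBDL, and was highest in the same array by a small margin. Of other inflammatory genes, picked out after their values were seen, Il1b (6.18), Il6 (3.46), Cd14 (6.50) and S100a8 (4.58) were highest of the 12 arrays there. Tnf (4.87) and Ifng (3.77) were lowest of the 12 there, and S100a9 (4.55) was below A/J CBDL replicate 3 (4.71).

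The difference between CBDL and sham in A/J mice was 0.66 for Cxcl5 (SE 0.51, adjusted p 0.601 in limma). Without A/J CBDL replicate 1 it was -0.16 (SE 0.11). After CBDL, A/J and B6 mice differed by 0.68 for Cxcl5 (SE 0.51) and by 0.63 for Ccl2 (SE 0.34), and without the same array by -0.14 and 0.09. The neutrophil receptor Cxcr2, picked out after its values were seen, gave 3.88, 3.48 and 3.44 in A/J CBDL, above all 9 other arrays, which lay between 3.01 and 3.39. Its A/J difference between CBDL and sham was 0.45 (SE 0.14, adjusted p 0.176 in limma). Cxcr1, also of neutrophils, lay between 4.55 and 5.20, and Ccr2 between 2.97 and 3.45. Cxcl2, outside the rule for naming genes and picked out after its values were seen, had all 6 CBDL arrays (3.28 to 4.41) above all 6 sham arrays (3.12 to 3.27); the margin was small. Such a separation over both strains was found for 1 higher and 2 lower genes of the 54, the lower being Ccl24 and Ccl25, beside 0.92% and 0.568% of all probe sets. Among 7 neutrophil markers Retnlg was called higher in A/J CBDL (limma), a comparison in which 0.818% of all probe sets were called. It gave 4.49, 4.36 and 4.69 in A/J sham and 5.39, 5.31 and 5.65 in A/J CBDL. Mpo and Ly6g went the other way with overlap. Mpo gave 5.05, 4.55 and 4.28 in A/J sham and 4.48, 4.33 and 4.41 in A/J CBDL. Ly6g gave 2.93, 3.19 and 3.26 against 3.16, 3.07 and 3.01.

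Ccl25, the ligand that small intestinal enterocytes display to bring Ccr9-bearing lymphocytes to the gut, was the brightest probe set of the 54 and among the least variable. Its signals were 12.04, 12.07 and 12.06 in A/J sham and 11.73, 11.71 and 11.73 in A/J CBDL mice. In B6 mice they were 11.87, 11.92 and 12.01 in sham and 11.83, 11.80 and 11.74 in CBDL. The CBDL arrays were lower than all sham arrays in both strains, with the smaller gap in B6 mice. Averaged over the strains it fell by 0.24 (SE 0.05, adjusted p 0.0474 in limma), only 1.18-fold. The A/J difference was -0.34 (SE 0.07, adjusted p 0.0703) and the B6 difference -0.14 (SE 0.07, adjusted p 0.716), and their difference was -0.19 (95% interval -0.42 to 0.04). The averaged call was lost without any 1 of the 12 arrays, where the fall was 0.22 to 0.26 and the adjusted p 0.061 to 0.13, so it rests on all 12. The other Ccl25 probe set was dim, between 6.33 and 6.86, and did not separate CBDL from sham.

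Ccr9 gave 4.70, 4.60 and 5.41 in A/J sham, 4.86, 4.84 and 4.86 in A/J CBDL, 4.98, 5.06 and 5.25 in B6 sham and 4.96, 4.42 and 4.47 in B6 CBDL. The groups overlapped in A/J mice, and in B6 mice CBDL was just below sham, with a difference of -0.48 (SE 0.20, adjusted p 0.619 in limma). Ccl28, which draws IgA plasma cells through Ccr10, gave 6.76, 6.50 and 6.57 in A/J sham against 6.48, 5.69 and 6.14 in B6 sham, a difference of 0.51 (SE 0.28, adjusted p 0.425). The A/J sham arrays were all above the B6 sham arrays by a thin margin. Ccl20, the ligand of Ccr6 in follicle-associated epithelium, lay between 5.09 and 5.86 in all arrays. In all, 0 of 6 mucosal homing genes had a positive difference in A/J mice and 1 of 6 in B6 mice; Ccl25 in the averaged comparison was the single call.

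Cxcl13, the ligand that brings Cxcr5-bearing B cells into follicles, was the most variable of the 54 genes between arrays of a group, with a residual SD of 0.98. Its signals were 6.02, 5.91 and 6.95 in A/J sham, 7.38, 7.65 and 6.53 in A/J CBDL, 5.81, 5.38 and 5.69 in B6 sham and 9.38, 6.11 and 6.57 in B6 CBDL. In B6 mice all CBDL arrays exceeded all sham arrays, with replicate 1 far above the others, and in A/J mice the groups overlapped. The difference was 1.72 in B6 (SE 0.69, adjusted p 0.568 in limma) and 0.89 in A/J mice (SE 0.69, adjusted p 0.602). Averaged it was 1.31 (SE 0.49, adjusted p 0.248). Without B6 CBDL replicate 1 the B6 difference was 0.71 (SE 0.37, adjusted p 0.90) and the averaged one 0.80 (SE 0.25, adjusted p 0.21). Cxcr5 stayed between 3.13 and 3.43 in all arrays. B cell and follicle markers (7 genes) averaged 5.05 in A/J sham replicate 3, which also had the highest Cxcl13 of its group, and 3.80 to 4.12 in the other arrays, B6 CBDL replicate 1 among them at 3.97.

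The interferon-inducible ligands of Cxcr3 shared that outlying array. Cxcl10 (IP-10) gave 5.85, 6.47 and 6.23 in A/J sham, 5.95, 5.46 and 5.53 in A/J CBDL, 6.28, 6.27 and 6.66 in B6 sham and 8.85, 5.73 and 5.50 in B6 CBDL. Cxcl9 (MIG) gave 5.76, 6.18 and 5.85 in A/J sham, 5.29, 5.46 and 5.50 in A/J CBDL, 6.45, 5.87 and 6.56 in B6 sham and 7.04, 5.97 and 5.52 in B6 CBDL. B6 CBDL replicate 1 was the highest of all arrays for both, while the other CBDL arrays were mostly at or below sham. Cxcl10, Cxcl13, Cxcl9 and Ccl11 each exceeded the other arrays of the group by more than 1 there, 4 of 54 genes beside 0.287% of all probe sets. Genes that induce chemokines, picked out here after their values were seen, were mixed in that array. Nfkbia (8.68), Il1b (5.68) and Tnf (5.32) were the highest of the B6 CBDL group there. Ifng (4.18) and Irf1 (9.26) were not, and Il4 (3.97) and Stat6 (8.57) were the lowest of the group. The third ligand, Cxcl11, lay between 6.29 and 6.43 in B6 CBDL, and Cxcr3 between 5.29 and 5.93 in all arrays.

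For Cxcl10 the B6 difference between CBDL and sham was 0.29 (SE 0.68, adjusted p 0.973 in limma), and without that array it was -0.79 (SE 0.21, adjusted p 0.42). Its A/J difference was -0.54 (SE 0.68) and that of Cxcl9 -0.51 (SE 0.32), both not called. Cxcl9 did not overlap between sham and CBDL in A/J mice, with CBDL lower. Between the strains after CBDL, Cxcl10 differed by -1.05 (SE 0.68) and Cxcl9 by -0.76 (SE 0.32), and without that array by 0.03 and -0.33.

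**Figure D3:**
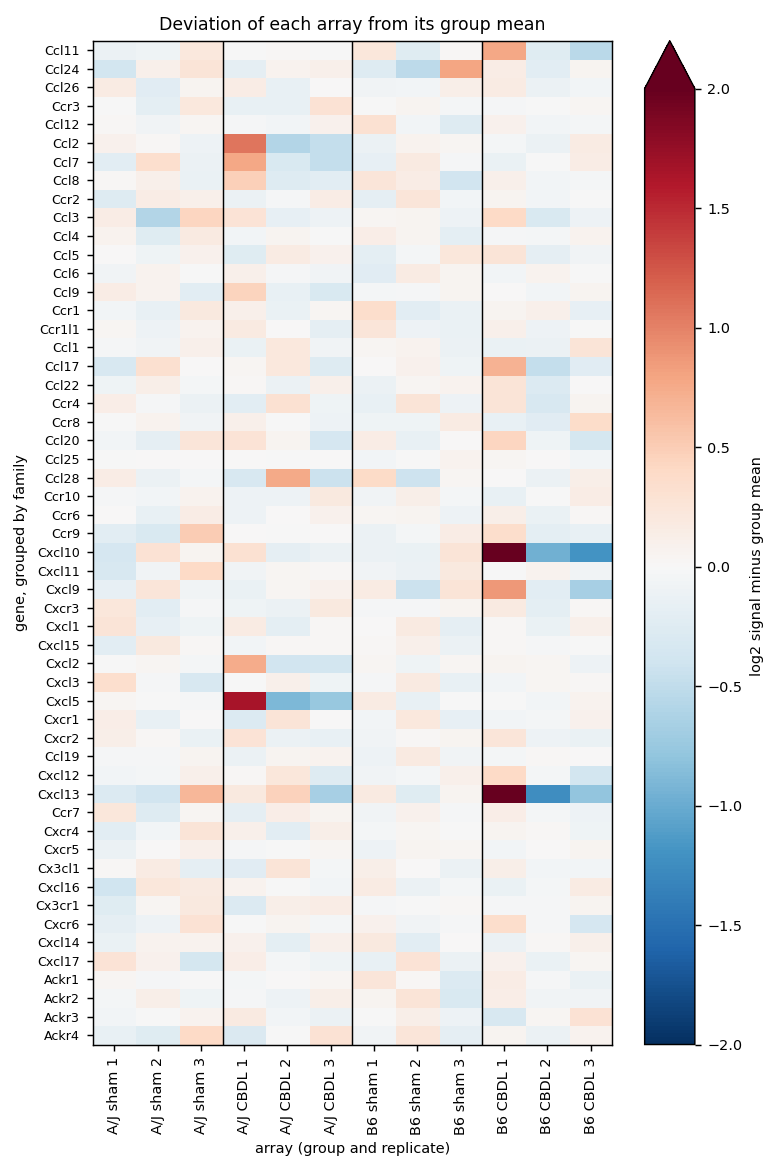
Deviation of the log2 signal of each array (columns) from the mean of its group for the 54 genes (rows), in red above and blue below the mean; the scale ends at 2. The 2 columns with several dark cells are A/J CBDL replicate 1 (Ccl2, Cxcl5, Ccl7, Cxcl2) and B6 CBDL replicate 1 (Cxcl10, Cxcl13, Cxcl9, Ccl11).

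Cxcl14, an epithelial chemokine made without induction in many tissues, gave 7.22, 7.42 and 7.42 in A/J sham and 7.20, 6.93 and 7.23 in A/J CBDL mice. In B6 mice it gave 7.62, 7.21 and 7.43 in sham and 6.64, 6.79 and 6.86 in CBDL. The B6 CBDL arrays were the lowest of all 12, and A/J CBDL reached into the sham range. Averaged over the strains Cxcl14 fell by 0.45 (SE 0.09, adjusted p 0.0353 in limma), or 1.36-fold. The B6 difference was -0.66 (SE 0.13, adjusted p 0.111) and the A/J difference -0.23 (SE 0.13, adjusted p 0.444), with a difference between them of 0.43 (95% interval 0.03 to 0.82, adjusted p 0.705). The averaged call was kept without A/J sham replicate 1 or B6 sham replicate 2 and lost without any other array, where the fall was 0.40 to 0.47 and the adjusted p 0.051 to 0.097. With the T and NK marker mean as a covariate the averaged difference was -0.37 (SE 0.22) and with the hepatocyte mean -0.27 (SE 0.27), neither called. Cxcl17, a mucosal chemokine, gave 5.79, 5.59 and 5.15 in A/J sham against 4.91, 5.34 and 4.94 in B6 sham, a difference of 0.45 (SE 0.17, adjusted p 0.23) with overlap.

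The remaining families showed no call in any of the 6 comparisons. Cx3cl1 and Cxcl16, the membrane-anchored ligands, lay between 7.87 and 8.35 and between 7.07 and 7.95. Their receptors Cx3cr1, of intestinal macrophages, and Cxcr6, of lymphocytes, lay between 6.34 and 7.00 and between 3.77 and 4.71. Ccl22, a dendritic cell ligand of Ccr4, gave 4.29, 4.16 and 4.37 in A/J CBDL against 4.85, 4.32 and 4.59 in B6 CBDL, a difference of -0.31 (SE 0.13, adjusted p 0.314 in limma) with slight overlap. Ccl19, which guides Ccr7-bearing cells into lymphoid tissue, lay between 5.53 and 5.94, and Cxcl12, the ligand of Cxcr4, between 5.69 and 6.46. The 4 atypical receptors Ackr1 to Ackr4 had a median difference of 0.01 in the B6 and 0.00 in the A/J strain.

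**Figure D4:**
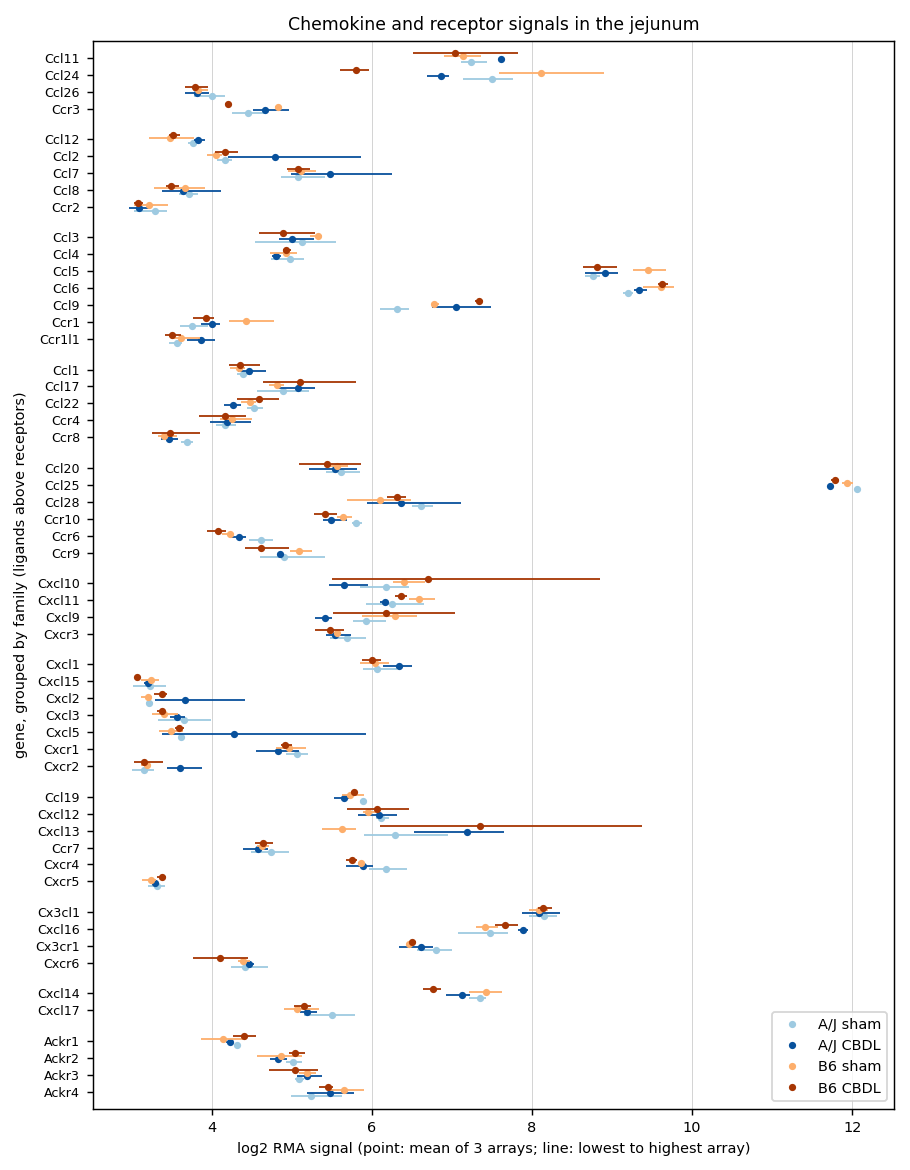
Mean log2 signal of the 54 genes in each of the 4 groups (points) with the range of 3 arrays (lines), grouped by family with ligands above receptors. Groups lie close together for most genes, and wide lines mark single arrays that stand apart, as for Cxcl10 and Cxcl13 in B6 CBDL.

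Of 17 receptors, 14 had a negative averaged difference and 0 passed the test (limma), 2 with an unadjusted p under 0.05 (Ccr6 and Ccr10), beside 14.1% of all probe sets. The median was -0.12, against -0.01 over all probe sets. In B6 mice 13 of 17 and in A/J mice 11 of 17 were negative. Of the 33 ligands 19 were negative in the averaged comparison, with a median of -0.06. Some leukocyte markers moved with the receptors and others did not. In the averaged comparison T and NK markers were negative in 11 of 11 genes (median -0.34, Gzmb and Nkg7 called in limma). B cell markers were negative in 7 of 7 (median -0.20, 0 called), with A/J sham replicate 3 at 5.05 and the other A/J sham arrays at 4.11. Neutrophil marker means were higher after CBDL, at 4.15 against 3.92 in A/J and 3.91 against 3.83 in B6 mice. Macrophage and dendritic cell means were higher in A/J (7.03 against 6.97) and lower in B6 mice (6.90 against 7.12). The part of these cells in the receptor signals was not tested.

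Between the strains, differences were small as well. In sham mice 9 genes were higher in A/J and 5 lower with no overlap, beside 9.15% and 9.53% of all probe sets. After CBDL these numbers were 11 and 7, beside 10.4% and 11.3%. There 0 of 54 passed the test in limma, beside 1.78% of all probe sets, with 12 at an unadjusted p under 0.05 beside 13.7%; in sham mice 10 did so beside 15.4%. The highest difference after CBDL was that of Ccl24, at 1.06 (SE 0.29, adjusted p 0.112), or 2.08-fold higher in A/J, with all A/J arrays above all B6 arrays. In sham mice its difference was -0.61 (SE 0.29, adjusted p 0.343) with overlap. For Ccr3 these differences were 0.47 (SE 0.13, adjusted p 0.128) after CBDL and -0.37 (SE 0.13, adjusted p 0.222) in sham mice. The difference of the strains' responses was called in 0 of 54 genes (limma), beside 0.0366% of all probe sets; 7 had an unadjusted p under 0.05, beside 6.88%.

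**Figure D5:**
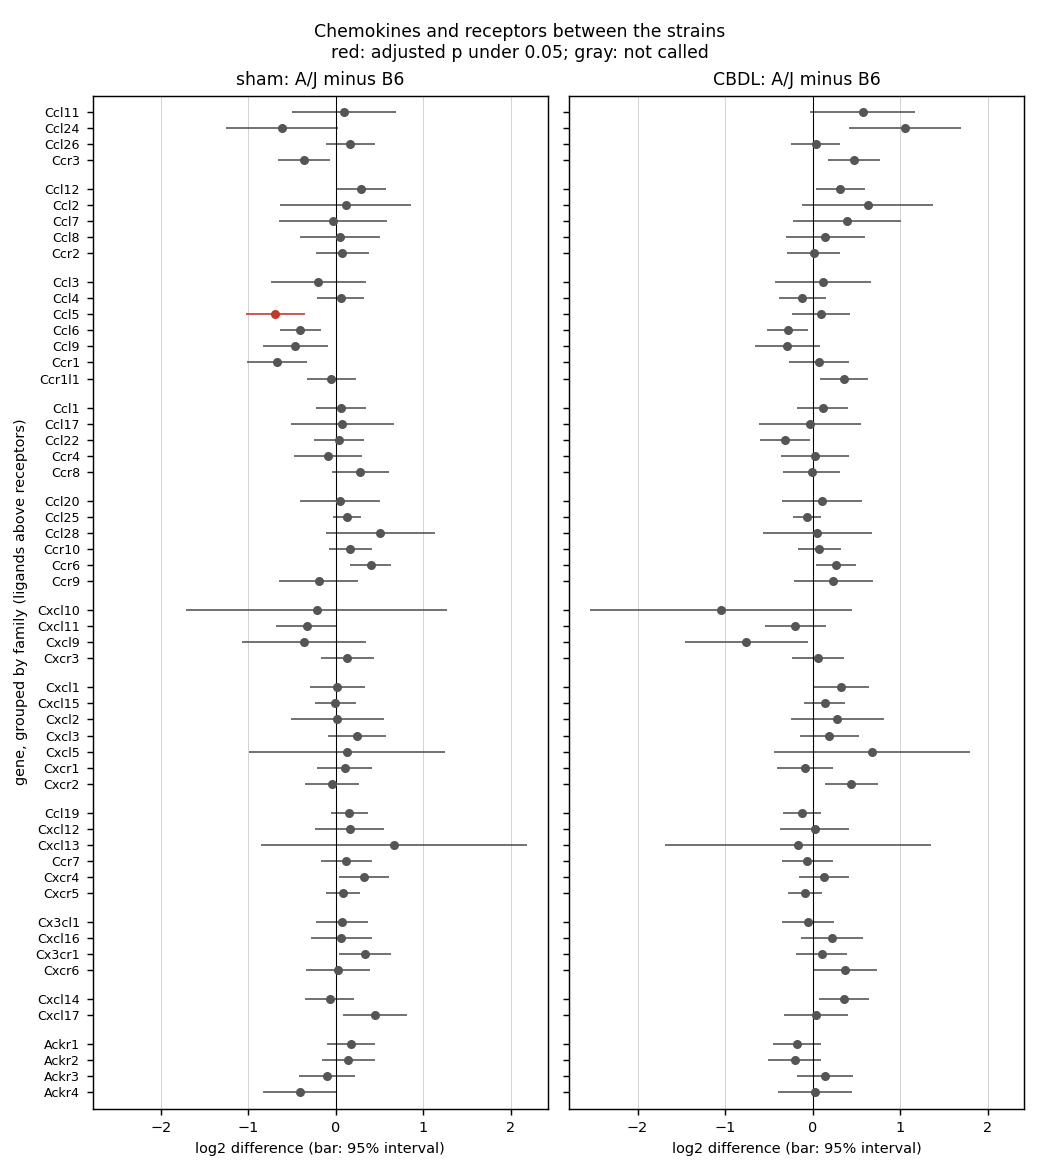
Log2 difference between A/J and B6 mice for the 54 genes after sham surgery (left) and after CBDL (right), with 95% intervals; genes are grouped by family with ligands above receptors. Ccl5 in sham mice is the single red point, at -0.69, and Ccl24 and Ccr3 lie left of 0 in sham and right of it after CBDL.

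Other genes of the pathway changed little. Of 24 measured genes of chemokine receptor signaling, Rgs2, a regulator that ends G protein signals, was called, lower in A/J than B6 sham mice (difference -0.49, adjusted p 0.049 in limma), and none in the other comparisons. In B6 mice 19 of 24 were negative after CBDL, with a median of -0.13, and 11 of 12 genes of leukocyte homing and adhesion were too, with a median of -0.14. In the same comparison T and NK markers were negative in 11 of 11 genes (median -0.70) and macrophage and dendritic cell markers in 9 of 10 (median -0.26), and their part was not tested. Itgae, the integrin that holds lymphocytes in the epithelium, gave 6.99, 6.79 and 7.10 in B6 sham and 6.68, 6.25 and 6.16 in B6 CBDL, without overlap and without a call (difference -0.60, adjusted p 0.28). Of 7 other chemokines and receptors and 17 genes that induce chemokines, 0 were called in any comparison (limma). Rarres2 (chemerin), the ligand of Cmklr1, had the highest A/J difference of these 7, at 0.69 (adjusted p 0.083), against -0.34 (adjusted p 0.67) in B6 mice. The study's own list of changed genes, with its own processing, held Rarres2 as higher in A/J CBDL mice.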

How the data were processed

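Total RNA of 12 jejunum samples was hybridised to Affymetrix arrays, 3 for each strain and surgery. Per the labels, the authors made the deposited log2 values by RMA in the Affymetrix Expression Console (versions not given in the sources used here). RMA subtracts background, equalises the arrays and summarises probes, so a shift common to all genes is removed and low signals are compressed. The study's methods name another array and GCRMA; the deposited probe sets are those of the Mouse Gene 1.0 ST annotation. The values were used without further normalization, and arrays carry no depth: their number limits the precision.

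Names came from the platform annotation, with 21789 of 35556 probe sets holding 1 name, 1621 several and 12146 none. A mean per group was fitted to 12 arrays with limma 3.58.1 (R 4.3.3, lmFit and eBayes), with Benjamini-Hochberg adjustment over all probe sets and a call at an adjusted p under 0.05. The 6 comparisons were CBDL against sham in each strain, A/J against B6 after each surgery, the difference of the responses and CBDL against sham averaged over strains. The fit was tested on simulated data. The genes and lists were chosen with earlier results of these data known. Genes named with tests were those called, Ccl24, Ccl5, Ccl25, Cxcl13 and their receptors, and the 3 highest and 3 lowest of each 2-group comparison. Same-numbered arrays did not deviate together (correlations -0.31 to 0.36), so the fit has no pairing. Alternatives were other normalizations, filters, variances, array weights, each array left out, a replicate block and marker means as covariates.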

Additional observations from a re-analysis of the deposited data

How the results depend on the processing

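Of the recomputed log2 differences of the named genes, 1361 kept their direction and side of the threshold, 76 lost a call, 26 gained 1 and 30 changed sign. None of the 54 genes was called for the difference of responses in any alternative. The counts that follow are given without the share of all probe sets called in the same alternative. A higher count therefore cannot be read as a result particular to these genes. In A/J mice 0 genes were called, and 2 (Ccl25 and Ccl9) with probe sets of exactly 1 gene name, with any gene name or with array weights, and 1 after quantile normalization, with a trended robust variance or with no empirical Bayes. In B6 mice 1 was called, and 0 with only the arrays compared, median centring, no empirical Bayes, or the smooth muscle or T and NK mean as a covariate, 3 (Ccl24, Ccr3 and Cxcl14) with either name filter and 2 with array weights. Between sham mice 1 was called, and 0 with only the arrays compared, no empirical Bayes, the hepatocyte, smooth muscle or T and NK mean, or a 2-fold limit, 2 (Ccl5 and Ccr1) with either name filter and 5 with array weights. After CBDL the strains differed in 0, and in 1 (Ccl24) with only the arrays compared, either name filter or the hepatocyte mean, and 2 with array weights. Averaged over strains 4 were called, and 2 with no empirical Bayes, 0 with the hepatocyte or T and NK mean and 1 with a 2-fold limit. Without 1 array the counts were 0 in A/J mice, 0 to 1 in B6, 0 to 4 between sham mice, 0 to 1 after CBDL (Ccl24 without B6 sham replicate 3, Ccl11 without B6 CBDL replicate 1) and 1 to 3 averaged; the 4 between sham mice came without A/J sham replicate 3. The replicate numbers do not pair the arrays; with them as a block 0 genes were called in B6 mice, 0 between sham mice and 2 (Ccl24 and Ccl9) averaged.

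Signs turned as follows, and the cause was not tested. The T and NK mean as a covariate, chosen after seeing the data, gave 0.041 for Ccr9 in A/J mice, 0.13 for Ccl24, 0.055 for Ccl25, 0.26 for Ccl5 and 0.75 for Ccr9 in B6 mice, 1.08 for Ccl24, 0.031 for Cxcl14 and -0.12 for Cxcl17 between sham mice, -0.11 for Ccl5 after CBDL, -0.59 for Ccl24 and -0.043 for Ccl5 in the difference of responses and 0.24 for Ccl5 averaged. The hepatocyte mean gave -0.64 for Ccl5 and 0.029 for Cxcl14 in A/J mice and 0.62 for Ccl24 between sham mice. Array weights gave 0.10 for Ccr9 in A/J mice and -0.0024 for Cxcl10 in B6 mice, median centring 0.0050 for Cxcl14 and the other probe set -0.25 for Ccl25 between sham mice. Without 1 array, A/J mice gave -0.20 to 0.20 for Ccr9, -0.16 to 1.11 for Cxcl5 and -0.089 to 0.021 for Cxcr5, B6 mice -0.79 to 0.89 for Cxcl10, sham mice -0.17 to 0.029 for Cxcl14, CBDL mice -1.65 to 0.032 for Cxcl10, -0.79 to 0.85 for Cxcl13 and -0.14 to 1.13 for Cxcl5, and the difference of responses -0.052 to 0.32 for Ccl9 and -1.45 to 0.18 for Cxcl13. The smooth muscle mean and the filter on any gene name were also chosen after seeing the data. Fitting only the arrays compared gives no value for the difference of responses or the average. With 31 of 54 genes dimmer than the median probe set, small changes in them may have been missed.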
